A study of Mus musculus with 20 samples.

Results

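The vessel wall both holds blood fluid and starts its clotting, and 8 genes through which endothelial cells do so are described here across the microvasculature of the mouse kidney. The 8 genes were chosen by symbol, among the 34255 genes of a 3′ mRNA read count table, as clotting, anticoagulant and fibrinolysis genes of the vessel wall. They are Vwf (von Willebrand factor), Thbd (thrombomodulin), Procr (the endothelial protein C receptor), Tfpi (tissue factor pathway inhibitor), Plat (tissue plasminogen activator), F3 (tissue factor), F8 (coagulation factor VIII) and Pros1 (protein S). All 8 passed the filter on low counts in both fits used below. Laser microdissection had taken 4 compartments from kidney cryosections of healthy young adult male wild-type C57BL6/OlaHsd mice. They were arterioles, glomeruli, post-capillary venules and peritubular capillaries, the latter called capillaries and the third venules below. Sections of whole kidney from such mice served as the reference, and a smaller area was cut for arterioles and capillaries. Each of the 5 groups holds 4 libraries, 20 in all, which are named here by group and by the number in their column of the table (93, 96, 98 or 100). Values per library follow that order. All 20 libraries carry the treatment label control.

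Hemostasis at the vessel wall works as a set of opposed steps. Tissue factor starts coagulation and is normally kept away from flowing blood, von Willebrand factor tethers platelets and carries factor VIII in plasma, and thrombin then cleaves fibrinogen. Against this, tissue factor pathway inhibitor blocks the first step, thrombomodulin turns thrombin into an activator of protein C on a cell that also presents the endothelial protein C receptor, protein S is the cofactor of activated protein C, and tissue plasminogen activator starts the breakdown of fibrin. Von Willebrand factor is widely used as an endothelial marker, although its level is known to differ between vascular beds.

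The libraries held 4639090 to 12283098 counts. Levels are given as CPM (read counts scaled to a common library total after TMM normalization), and reads were counted near the 3′ end of each transcript, so no level is compared between genes. Biological replicates are stated in the labels, but the mouse behind each is not named, so a p-value here reflects only how far these samples spread. Summed over 21 pan-endothelial genes, the level was 6652 ± 1524 CPM in arterioles, 4221 ± 292 CPM in glomeruli, 1650 ± 187 CPM in venules, 1009 ± 271 CPM in capillaries and 624 ± 52.2 CPM in whole kidney (SD, n = 4 each). Of the defining endothelial markers, Pecam1 was detected throughout, whereas Cdh5 averaged 2.26 ± 3.49 CPM in capillaries, below the 11.4 ± 3.31 CPM of whole kidney. The summed level of the capillary samples therefore rests on other genes of the list. The study cut these samples by lectin staining and reported, by quantitative RT-PCR, more endothelial mRNA in them than in dissected tubules. By the same method it found no significant difference in Pecam1 between whole kidney and either capillaries or venules. Microdissected samples were not pure endothelium: the summed level of 12 smooth muscle genes was 39490 CPM in arterioles, that of 10 podocyte genes 9306 CPM in glomeruli, and that of 12 proximal tubule genes 99400 CPM in capillaries and 30840 CPM in venules. In such bulk samples fewer cells of a type and less RNA per cell cannot be told apart.

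Replicate libraries differed widely in these genes. Over the 8 genes, the median coefficient of variation between the 4 libraries of a group was 91.8% in arterioles, 77.3% in glomeruli, 115.8% in capillaries and 73.3% in venules, against 46.7% in whole kidney. Pros1 ranged from 12.96 to 15.3 CPM in whole kidney but from 0.195 to 17.2 CPM in capillaries. Several genes went from near 0 to high within 1 group: Tfpi stood at 0.112 CPM in arteriole 98 and at 68.3 to 168 CPM in the other arteriolar libraries. The plot of the 8 genes by library shows this spread beside the group means.

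**Figure D1:**
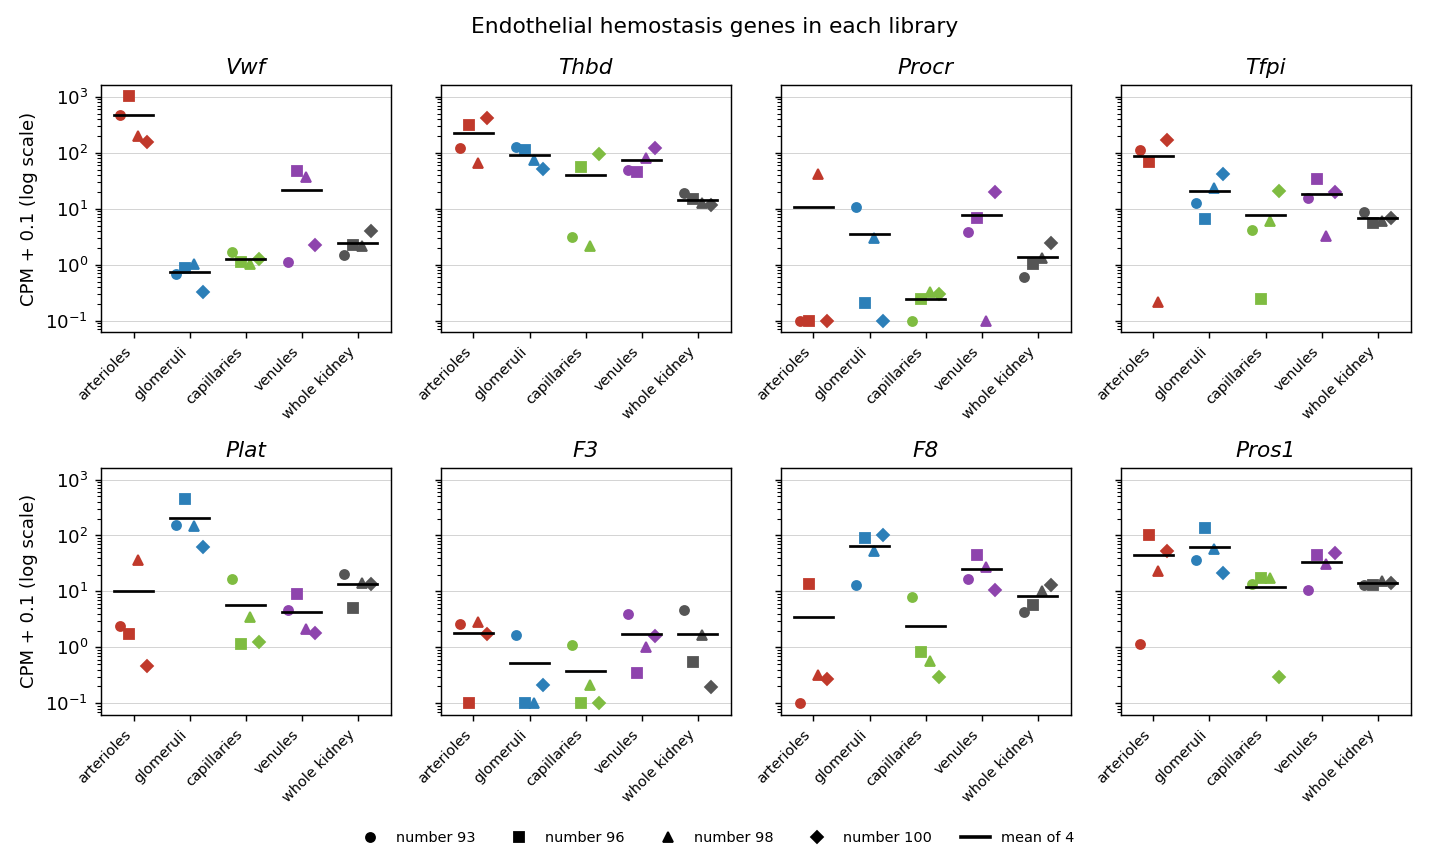
Levels of the 8 genes in the 20 libraries, as CPM + 0.1 on a log axis, with 1 point per library (the marker shape gives the library number) and a bar at the mean of the 4. Vwf stands above 158 CPM in each arteriolar library and below 1 CPM in each glomerular library, whereas Plat stands above 61 CPM in each glomerular library.

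Vwf, on chromosome 6 (GRCm38, chr6:125546774-125686679, plus strand), encodes the platelet-tethering protein that endothelial cells store in Weibel-Palade bodies. Arterioles held it at 478, 1032, 204 and 158.5 CPM, and glomeruli at 0.599, 0.770, 0.931 and 0.220 CPM. The 4 arteriolar libraries lay above each of the other 16. Capillaries held 1.61, 1.03, 0.929 and 1.17 CPM, and whole kidney 1.41, 2.18, 2.05 and 3.95 CPM. Venules split: venule 96 and venule 98 stood at 48.2 and 36.5 CPM, and venule 93 and venule 100 at 1.00 and 2.13 CPM. The order of the means was arterioles (468 CPM), venules (21.96 CPM), whole kidney (2.40 CPM), capillaries (1.18 CPM) and glomeruli (0.630 CPM), and in that order venules overlapped whole kidney, whole kidney overlapped capillaries, and capillaries overlapped glomeruli.

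Against whole kidney, Vwf was higher in arterioles by a log2 fold change of 7.60 ± 1.09 (SE; FDR = 5.34e-06, edgeR quasi-likelihood test with Benjamini-Hochberg adjustment over 13813 genes), a ratio of mean levels of 195. The venular difference of 3.19 ± 0.90 did not pass (FDR = 0.201), and the glomerular libraries, which all lay below those of whole kidney, did not pass either (log2 -1.89 ± 0.88, FDR = 0.288). Among the 16 microdissected libraries (12179 genes tested), Vwf was higher in arterioles than in glomeruli (log2 9.49 ± 1.26, FDR = 3.19e-06), than in capillaries (8.61 ± 1.21, FDR = 3.45e-06) and than in venules (4.41 ± 1.00, FDR = 0.0058). It was lower in glomeruli than in venules (-5.09 ± 1.04, FDR = 0.005), a call lost with the version 4 form of the edgeR test (-4.98, FDR = 0.0885). Capillaries were also called lower than venules (-4.20 ± 1.00, FDR = 0.0436), but their libraries overlapped with venule 93, and the call was lost without any 1 of the capillary libraries (FDR = 0.0973 to 0.142), without venule 96 (FDR = 0.175), without venule 98 (FDR = 0.117) and without arteriole 96 (FDR = 0.0745). It was also lost with RLE normalization (FDR = 0.0538), the version 4 form (FDR = 0.278) and a replicate block (FDR = 0.2). Without arteriole 96, the library with the highest level, the arteriolar excess over venules was 3.69 and missed the threshold (FDR = 0.0619).

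Megakaryocytes and platelets also carry Vwf mRNA, so their markers are given beside these values. The summed level of 11 megakaryocyte and platelet genes was 97.2, 281, 160 and 4.80 CPM in arterioles, 48.6, 124, 50.2 and 12.7 CPM in venules, 41.2 to 62.0 CPM in glomeruli, 0 to 5.72 CPM in capillaries and 16.2 to 19.4 CPM in whole kidney. In arteriole 100 the sum was 4.80 CPM and Vwf 158.5 CPM. The defining markers were sparse: Pf4 averaged 66.8 ± 133 CPM in arterioles and 3.34 ± 4.08 CPM in venules, and Ppbp 0.962 ± 1.28 and 3.35 ± 6.32 CPM (SD, n = 4). The part of these cells in the Vwf levels of arterioles and venules was not tested.

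Thbd is a single-exon gene on chromosome 2 (chr2:148404466-148408188, minus strand) and encodes the thrombin receptor that redirects thrombin to protein C. Arterioles held it at 123, 318, 65.0 and 412 CPM, glomeruli at 127, 110, 75.1 and 51.0 CPM, and venules at 49.6, 46.2, 81.2 and 121 CPM. Whole kidney held 18.8, 15.0, 12.6 and 11.8 CPM, below every library of those 3 compartments. Capillaries split, with 3.09 and 2.09 CPM in capillary 93 and capillary 98 and 56.3 and 95.8 CPM in capillary 96 and capillary 100. Thbd was thus spread over the compartments more evenly than Vwf, and the ranges of arterioles, glomeruli, venules and capillaries overlapped in every pair.

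Thbd was higher in arterioles than in whole kidney (log2 3.98 ± 0.94, FDR = 0.00447, ratio of means 15.8), a call that stood without each library in turn (FDR = 0.00199 to 0.0254). In glomeruli the log2 fold change was 2.64 ± 0.89 (FDR = 0.0936) and in venules 2.36 ± 0.88 (FDR = 0.325). Neither passed, and both passed when only the 8 libraries compared were fitted (FDR = 0.000816 and 0.0102). The glomerular difference also passed in the fits of all 20 libraries with the version 4 form of the edgeR test (FDR = 0.0254) and with an independent filter (FDR = 0.0259), but not with DESeq2 (FDR = 0.0586). Among the compartments no pair passed in the 16-library fit (smallest FDR 0.0725, arterioles against capillaries, log2 2.54 ± 0.95), nor did the test of any difference (FDR = 0.194). Arterioles against capillaries passed with the version 4 form (FDR = 0.0123), DESeq2 (FDR = 0.0256), all 20 libraries in the fit (FDR = 0.04), a replicate block (FDR = 0.0465) and without capillary 100 (FDR = 0.0378). Any difference passed with the version 4 form (FDR = 0.0345). Against the other 3 compartments, Thbd in arterioles missed the threshold (1.83 ± 0.67, FDR = 0.0694). It passed there with RLE normalization, no filter, the version 4 form and DESeq2 (FDR = 0.0102 to 0.041), without arteriole 98 (FDR = 0.0442) and without capillary 100 (FDR = 0.0287).

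Of the 8 genes, Vwf and Thbd were therefore the 2 called higher in arterioles than in whole kidney, where 5.78% of all genes tested were called higher. DESeq2 and the version 4 form each called 3 there, with Tfpi added. Over all genes, arteriolar calls in either direction rose from 1558 to 3824 with DESeq2 and to 2707 with the version 4 form. In glomeruli the test called 0 of 8 (1.59% of all genes were called higher), with 3 at an unadjusted p under 0.05. DESeq2 called 1 there, Plat, and the version 4 form of the edgeR test called 3, Thbd, Plat and F8. Over all genes, glomerular calls in either direction rose from 422 to 1019 with DESeq2 and to 1119 with the version 4 form. In capillaries 0 were called (0.0869% of all genes called higher), with 0 at an unadjusted p under 0.05 and 0 by either other test. In venules 0 were called (0.203% of all genes called higher), with 2 at an unadjusted p under 0.05. DESeq2 called 1 there, and 312 in place of 31 over all genes. The version 4 form called 0 of the 8. The median log2 fold change of the 8 genes was 2.40 in arterioles, 1.9 in glomeruli, 1.51 in venules and -1.13 in capillaries, beside medians over all genes of 0.22, 0.25, 0.19 and 0.18. The microdissected libraries were made with a low-input protocol and more PCR cycles than those of whole kidney, and the compartment and the preparation cannot be told apart in these contrasts, which share the 4 whole kidney libraries. The plot of fold changes against whole kidney gives each value with its error.

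**Figure D2:**
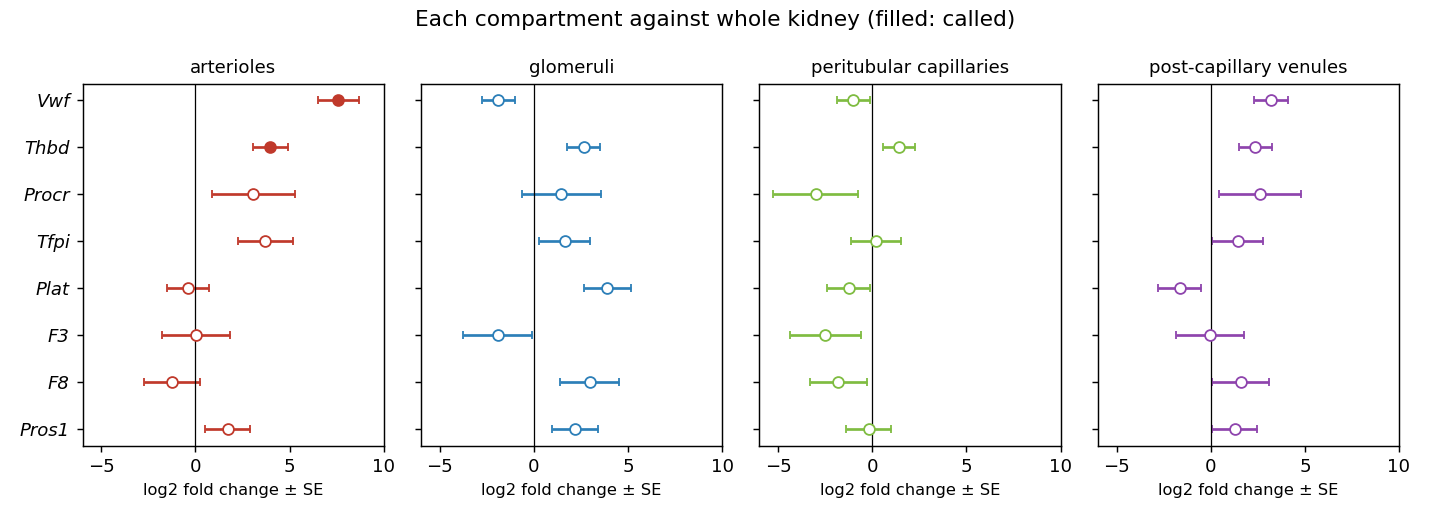
Log2 fold change of each gene in each compartment against whole kidney, with bars of 1 SE; filled points passed an FDR of 0.05 and a log2 fold change of 1. The 2 filled points are Vwf (7.60) and Thbd (3.98) in arterioles.

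Plat, on chromosome 8 (chr8:22757727-22782844, plus strand), encodes tissue plasminogen activator, the enzyme that turns plasminogen into plasmin on fibrin. Glomeruli held it at 152, 442, 149 and 61.4 CPM. Whole kidney held 20.7, 5.05, 13.9 and 13.7 CPM, venules 4.46, 8.72, 2.03 and 1.73 CPM, and capillaries 16.7, 1.03, 3.37 and 1.17 CPM. Arterioles held 2.33, 1.60, 35.9 and 0.356 CPM, with arteriole 98 apart from the others. The 4 glomerular libraries lay above each of the other 16, and the other 4 groups overlapped with one another.

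Plat was higher in glomeruli than in capillaries (log2 5.17 ± 1.45, FDR = 0.0288) and than in venules (5.56 ± 1.47, FDR = 0.0463). The first call was lost without glomerular 93, 96 or 98 or capillary 96, 98 or 100 (FDR = 0.0545 to 0.19). The second was lost without any 1 of the glomerular or venular libraries or capillary 98 (FDR = 0.0502 to 0.279), and with RLE normalization (FDR = 0.0681). The difference from arterioles was -4.32 ± 1.39 as arterioles against glomeruli and did not pass (FDR = 0.0912), and without arteriole 98 it was -7.12 and passed (FDR = 0.00969). With all arterioles kept, it passed with the version 4 form (FDR = 0.00213), DESeq2 (FDR = 0.00378) and all 20 libraries in the fit (FDR = 0.042). Against whole kidney the glomerular log2 fold change was 3.91 ± 1.26 (FDR = 0.0771), which passed without arteriole 96, 98 or 100 (FDR = 0.0376 to 0.0427), libraries that enter that contrast through the shared estimate of the spread. Against the mean of the other 3 compartments, Plat was 5.02 ± 0.92 higher in glomeruli (FDR = 0.000575) and met the rule for a glomerular marker, at least 10 CPM in 4 of 4 libraries included. Without glomerular 96 the test of any difference missed the threshold (FDR = 0.0766). That test had passed for Plat over all libraries (FDR = 0.00152). Glomerular libraries also held 8622 to 10060 CPM of the 10 podocyte genes, against 260 to 295 CPM in whole kidney, and 2307 ± 619 CPM of 10 mesangial and pericyte genes, which arterioles held at 7228 ± 2494 CPM. The part of these cells in the glomerular Plat level was not tested.

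F8 and Pros1 were the other genes with their mean level highest in glomeruli. F8, on the X chromosome (chrX:75172715-75382615, minus strand), encodes factor VIII, the cofactor that von Willebrand factor carries. It stood at 12.9, 89.1, 53.2 and 102 CPM in glomeruli, at 16.3, 44.7, 27.5 and 10.7 CPM in venules and at 4.13, 5.74, 9.96 and 13.1 CPM in whole kidney. Capillaries held 7.92, 0.733, 0.465 and 0.195 CPM. In arterioles arteriole 96 held 13.3 CPM and the others 0, 0.224 and 0.178 CPM, and the count of 0 in arteriole 93 allows up to 0.64 CPM (3 counts). The glomerular libraries lay above those of capillaries, and the capillary libraries below those of venules. No contrast of F8 passed in the edgeR fits described: the glomerular excess over the other 3 compartments was 3.46 ± 1.21 (FDR = 0.112) and over capillaries 4.78 ± 1.91 (FDR = 0.151). Arterioles against glomeruli gave -4.23 ± 1.86 (FDR = 0.203). Without arteriole 96, the latter was -8.64 (FDR = 0.0408) and the excess over the other 3 was 4.89 (FDR = 0.00715). The version 4 form of the edgeR test called the excess over the other 3 with all libraries (3.41, FDR = 0.00393), as well as the contrasts of glomeruli with whole kidney (FDR = 0.0174), with capillaries (FDR = 0.0145) and with arterioles (FDR = 0.0315). DESeq2 called glomeruli against capillaries (FDR = 0.00988) and any difference (FDR = 0.0332), which the version 4 form also called (FDR = 0.0059). Lymphatic endothelium is a known source of factor VIII. Its 6 listed genes summed to 180 to 282 CPM in glomeruli. Most of that sum was Pdpn (191 ± 60.2 CPM), and Prox1 was at most 0.233 CPM there. The sum was 11.7 to 487 CPM in arterioles, where F8 was low, and 20.8 to 86.0 CPM in venules. It was 0.88 to 28.9 CPM in capillaries and 34.6 to 39.1 CPM in whole kidney. The part of these cells in the F8 levels was not tested.

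The arterioles thus held the carrier Vwf at its highest level and F8, the protein it carries, at 3.43 ± 6.59 CPM (SD, n = 4), while glomeruli held Vwf at 0.630 ± 0.305 CPM and F8 at 64.4 ± 40.1 CPM. Over the 16 microdissected libraries the correlation of log2(CPM + 1) between Vwf and F8 was r = -0.32, and that between F8 and Plat r = 0.60. These values describe libraries that share group and depth.

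Pros1, on chromosome 16 (chr16:62854307-62929346, plus strand), encodes protein S, a cofactor of activated protein C and a ligand of the TAM receptor kinases. Glomeruli held 36.9, 135, 56.3 and 21.1 CPM, arterioles 1.06, 104, 23.3 and 53.3 CPM, and venules 10.4, 45.03, 31.4 and 47.8 CPM. Capillaries held 13.6, 17.0, 17.2 and 0.195 CPM, and whole kidney 13.01, 12.96, 15.3 and 14.1 CPM. The glomerular libraries lay above those of whole kidney and of capillaries, and the other groups overlapped. No contrast passed: the glomerular log2 fold change was 2.17 ± 1.23 against whole kidney (FDR = 0.445) and 2.38 ± 1.39 against capillaries (FDR = 0.408). With only the 8 libraries compared in the fit, the first passed (2.06, FDR = 0.019).

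The promoter windows of F8 and Pros1 are shown because both genes had their highest mean in glomeruli and were correlated over the 16 libraries (r = 0.57). Promoters of 5 of the 8 genes were in the RefSeq table used (GRCm38.p6, 300 bases around a transcript start). Vwf, Thbd and Plat were not among them. The F8 window is chrX:75379992-75380291 on the minus strand, inside the gene span given above, and the Pros1 window is chr16:62854057-62854356 on the plus strand. Capitals mark GGAA or its reverse complement TTCC, the core letters that ETS factors read.
F8: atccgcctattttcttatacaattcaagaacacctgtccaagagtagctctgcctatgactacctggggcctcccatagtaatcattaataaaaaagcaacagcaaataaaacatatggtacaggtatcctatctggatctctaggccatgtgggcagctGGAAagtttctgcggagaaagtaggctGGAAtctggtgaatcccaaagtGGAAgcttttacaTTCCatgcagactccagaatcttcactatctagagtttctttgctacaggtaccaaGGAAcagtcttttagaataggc
Pros1: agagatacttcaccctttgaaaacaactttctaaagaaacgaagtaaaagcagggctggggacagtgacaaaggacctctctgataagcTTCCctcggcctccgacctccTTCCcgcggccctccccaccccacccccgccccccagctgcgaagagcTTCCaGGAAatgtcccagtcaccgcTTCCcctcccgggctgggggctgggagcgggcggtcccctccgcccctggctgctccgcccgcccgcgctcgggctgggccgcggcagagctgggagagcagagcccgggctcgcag
Each window holds 5 such matches, and 96% of all 32851 promoter windows of this length hold at least 1. The letters AGATAA or TTATCT, the core read by GATA factors, occur in 11.2% of all windows and 0 times in either of these. CACCC or GGGTG, read by Krüppel-like factors, occurs 3 times in the Pros1 window, 0 times in that of F8 and in 57.5% of all windows.

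Tfpi, on chromosome 2 (chr2:84432855-84476775, minus strand), encodes the inhibitor of tissue factor with factor VIIa. Arterioles held 115, 68.3, 0.112 and 168 CPM, and arteriole 98, with 1 count, stood apart. Glomeruli held 12.5, 6.38, 23.8 and 41.7 CPM, venules 15.5, 34.3, 3.14 and 20.1 CPM, capillaries 4.08, 0.147, 6.04 and 20.8 CPM, and whole kidney 5.39 to 8.77 CPM. The other 3 arteriolar libraries lay above each of the remaining 16 libraries of the study. The arteriolar excess over whole kidney was 3.70 ± 1.46 and did not pass (FDR = 0.0799), and without arteriole 98 it was 4.11 (FDR = 0.0444). With all libraries it passed by the version 4 form (FDR = 0.00428) and by DESeq2 (FDR = 0.00517). Against glomeruli it was 2.06 ± 1.51 (FDR = 0.505) and against capillaries 3.50 ± 1.60 (FDR = 0.14), where the version 4 form (FDR = 0.02) and DESeq2 (FDR = 0.0181) called it.

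Procr and F3 were sparse. Procr, on chromosome 2 (chr2:155751117-155755471, plus strand), presents protein C to the thrombin-thrombomodulin complex. It was at 42.7 CPM (381 counts) in arteriole 98 and at 0 in the other 3 arteriolar libraries, where a count of 0 allows up to 0.48 to 0.64 CPM. Venules held 3.68, 6.90, 0 and 20.3 CPM, glomeruli 10.8, 0.110, 2.87 and 0 CPM, capillaries 0 to 0.232 CPM and whole kidney 0.504 to 2.35 CPM. Arteriole 98 was therefore high in Procr and Plat and near 0 in Tfpi, while its pan-endothelial sum was 5473 CPM, close to the 5486 CPM of arteriole 100. F3, on chromosome 3 (chr3:121723537-121735048, plus strand), the starter of coagulation, reached at most 4.54 CPM in whole kidney 93 and 3.79 CPM in venule 93. It was at 0 in 1 arteriolar, 2 glomerular and 2 capillary libraries, where a count of 0 allows up to 0.23 to 0.58 CPM. No contrast of Procr or F3 passed in the edgeR fits described. DESeq2 called Procr higher in arterioles than in capillaries (6.23, FDR = 0.0383), and all arteriolar counts of Procr came from arteriole 98. Per endothelial count, described below, arterioles were lower than venules in Procr without that library (-9.95, FDR = 0.0472). With all libraries, 2361 of 12179 genes were called lower in that contrast.

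Between pairs of compartments, 1 of 8 genes was called higher in arterioles than in glomeruli (1.33% of all genes), than in capillaries (6.22%) and than in venules (2.5%), in each case Vwf. In glomeruli 1 was called higher than in capillaries (2.21%) and 1 higher (0.493%) and 1 lower (0.731%) than in venules. In capillaries 1 was called lower than in venules (0.328%). Those calls were Plat, Plat, Vwf and Vwf. The test of any difference called 2 of 8, Vwf (FDR = 6.38e-09) and Plat (FDR = 0.00152), beside 11.4% of all genes. By the marker rule, Vwf was the 1 arteriolar marker (4.76% of all genes) and Plat the 1 glomerular marker (1.51%). For capillaries (3.24%) and venules (0.238%) the edgeR test gave 0 markers, with 2 of the genes at an unadjusted p under 0.05 in each, in either direction, and 0 called by DESeq2 and by the version 4 form. The rule counts higher levels only. Against the other 3 compartments, Vwf was lower in capillaries (log2 -3.97 ± 0.94, FDR = 0.00505) and in glomeruli (-5.15 ± 1.00, FDR = 0.00116). The plot of compartment pairs shows all 48 differences.

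**Figure D3:**
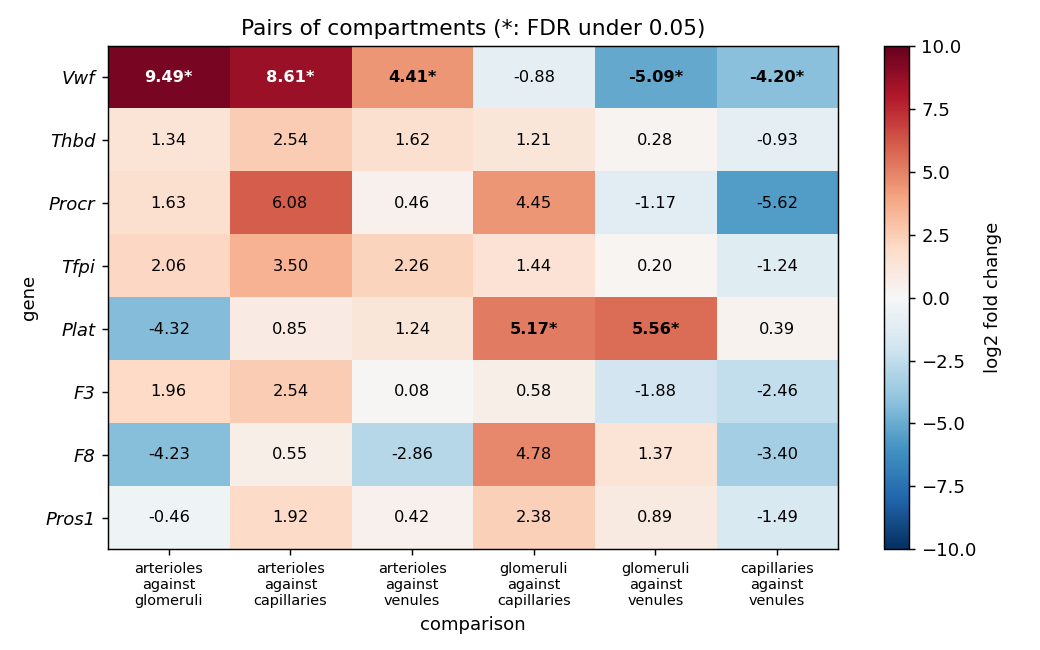
Log2 fold changes of the 8 genes in the 6 pairs of compartments, first named against second, coloured from blue (lower) to red (higher), with an asterisk at an FDR under 0.05. The 7 asterisks are 5 of Vwf and 2 of Plat.

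To ask whether a gene differed beyond the endothelial RNA of a sample, counts were also scaled to the summed count of the 21 pan-endothelial genes. The list holds Kdr, whose protein the paper describes as high on glomerular endothelium, and Cdh5, which was low in capillaries. The sum per endothelial cell may therefore differ between compartments. With this scaling the median over all genes of the log2 fold change moved to -0.34 for arterioles against glomeruli, -2.52 for arterioles against capillaries, -1.71 for arterioles against venules, -2.08 for glomeruli against capillaries, -1.32 for glomeruli against venules and 0.82 for capillaries against venules, so the values below are to be read beside those shifts. Per 1000 endothelial counts, Vwf stood at 63.4 ± 40.7 in arterioles, 12.2 ± 13.1 in venules, 3.81 ± 1.64 in whole kidney, 1.20 ± 0.286 in capillaries and 0.151 ± 0.0752 in glomeruli (SD, n = 4 each). Arterioles remained higher than glomeruli (log2 8.66 ± 1.69, FDR = 0.00232, 0.402% of all genes called higher) and than capillaries (5.71 ± 1.49, FDR = 0.00377, 1.48%), and glomeruli lower than venules (-6.29 ± 1.52, FDR = 0.00689, 6.91%). The excess over venules did not pass (2.37 ± 1.27, FDR = 0.18). With Pecam1 alone as the endothelial count, the calls against capillaries (3.72, FDR = 0.0807) and of glomeruli against venules (-6.83, FDR = 0.0511) were lost.

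Thbd per 1000 endothelial counts was 35.3 ± 28.5 in arterioles, 21.9 ± 9.06 in glomeruli, 37.6 ± 40.3 in capillaries, 46.7 ± 26.0 in venules and 23.6 ± 6.71 in whole kidney, and all 5 ranges overlapped. Plat was 49.96 ± 45.2 in glomeruli, 22.1 ± 12.04 in whole kidney, 5.45 ± 6.91 in capillaries, 2.49 ± 1.69 in venules and 1.79 ± 3.19 in arterioles. Its glomerular range of 13.8 to 116 then overlapped with whole kidney and capillaries, and its differences from capillaries (3.19 ± 1.56, FDR = 0.144) and venules (4.32 ± 1.64, FDR = 0.113) did not pass. Without arteriole 98, arterioles were lower in Plat than glomeruli (-7.96, FDR = 0.0253) and than capillaries (-4.77, FDR = 0.0369). F8 was 15.4 ± 9.73 in glomeruli, 14.4 ± 7.31 in venules, 13.1 ± 6.34 in whole kidney, 2.27 ± 3.44 in capillaries and 0.402 ± 0.754 in arterioles. On this scale glomeruli, venules and whole kidney held F8 at overlapping levels, and the arteriolar libraries lay below them (arterioles against venules -5.14 ± 2.05, FDR = 0.069). That contrast passed without arteriole 96 (-8.90, FDR = 0.0174) and with Pecam1 alone (-7.17, FDR = 0.0161). Arterioles against capillaries passed without arteriole 96 (-6.24, FDR = 0.0376). Many genes were lower in arterioles on this scale. With all libraries, 2361 of 12179 genes were called lower than in venules, 4163 lower than in capillaries and 219 lower than in glomeruli. Pecam1 alone raised the calls between arterioles and venules, in either direction, from 2430 to 4684. Pros1 ranged from 6.51 ± 5.33 in arterioles to 22.3 ± 2.56 in whole kidney. The plot of levels per endothelial count shows Vwf, Thbd, Plat and F8 on this scale.

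**Figure D4:**
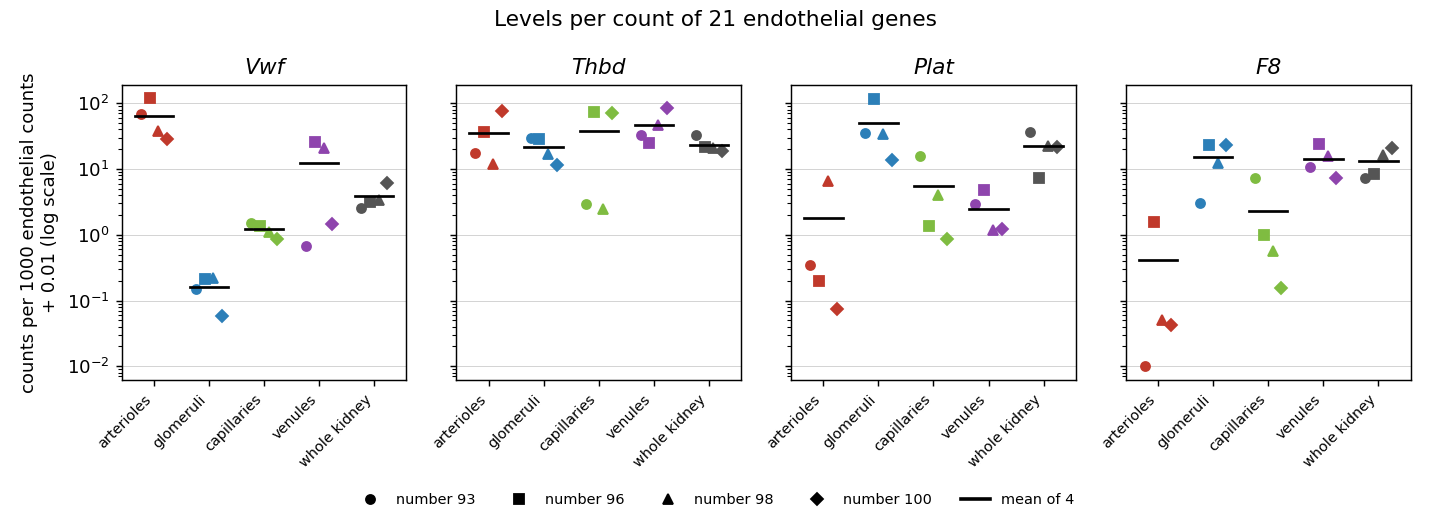
Counts of Vwf, Thbd, Plat and F8 per 1000 counts of the 21 pan-endothelial genes, plus 0.01, on a log axis, with 1 point per library and a bar at the mean of the 4. Vwf keeps its arteriolar excess over glomeruli (63.4 against 0.151), Thbd overlaps in all groups, and F8 is lowest in arterioles (0.402).

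The genes whose levels followed each of the 8 most closely over the 16 microdissected libraries were taken from 9103 genes with a mean of at least 10 CPM, by Pearson correlation of log2(CPM + 1). For Vwf these were Aoc3 (r = 0.964), Ptgis (r = 0.95) and Mall (r = 0.939). For Plat they were Coro2b (r = 0.929), Rassf10 (r = 0.890) and Flrt2 (r = 0.890), and for Thbd Itga9 (r = 0.911), Ahdc1 (r = 0.874) and Cdkn1a (r = 0.831). F8 was followed by Enho (r = 0.892), Hecw2 (r = 0.881) and Dlg5 (r = 0.849), and Pros1 by Rpl34 (r = 0.920), Cd24a (r = 0.881) and Vezf1 (r = 0.873). The closest to Tfpi were Tmem129 (r = 0.827), Lyz2 (r = 0.814) and Psmc3 (r = 0.788). For the sparse Procr and F3, where 1 or a few libraries set the value, they were Kifc2 (r = 0.953), Cdc42ep5 and Zbtb5, and Kcnn4 (r = 0.785), Rab2b and Cpxm1.

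The other genes of hemostasis were described from 7 lists of 78 genes, of which 58 were tested against whole kidney. In arterioles 10 were higher and 7 lower (5.78% and 5.5% of all genes), and in glomeruli 4 were higher and 2 lower (1.59% and 1.47%). In capillaries and in venules the edgeR test called 0 in either direction (0.0941% and 0.224% of all genes), with 15 and 12 of the 58 at an unadjusted p under 0.05. No other test was run on these lists. The median log2 fold change of the tested genes was 1.01, 0.53, 0.27 and 0.38 in arterioles, glomeruli, capillaries and venules.

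Of 5 tested genes by which the vessel wall restrains platelets, 2 were higher in arterioles than in whole kidney and 1 was lower. Of all genes tested, 5.78% were called higher there and 5.5% lower. Ptgis, prostacyclin synthase, was at 698 ± 398 CPM in arterioles against 1.33 ± 0.784 CPM in glomeruli and 6.42 ± 1.49 CPM in whole kidney (log2 6.76 ± 0.92 against whole kidney, FDR = 1.92e-06). Nos3, endothelial nitric oxide synthase, was at 462 ± 43.6 CPM in arterioles against 6.04 ± 1.54 CPM in whole kidney (6.26 ± 1.04, FDR = 6.15e-05), and its 4 arteriolar libraries ranged from 426 to 524 CPM. Nt5e, which makes adenosine, was lower in arterioles (-5.40 ± 1.35, FDR = 0.00722). Selp, the P-selectin stored with von Willebrand factor, was called higher in arterioles (6.85 ± 2.14, FDR = 0.0337) at 0.425 to 159 CPM, and was the 1 of 12 tested genes of making and storage called there. In glomeruli 0 of 5 platelet-restraint genes were called by the edgeR test, with 2 at an unadjusted p under 0.05, and of the storage genes Cd63 was lower (-1.34 ± 0.32, FDR = 0.0112).

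Of 8 fibrinolysis genes tested, Serpine2, an inhibitor of thrombin and of plasminogen activators, was higher than in whole kidney in arterioles (3.85 ± 0.60, FDR = 2.38e-05) and in glomeruli (4.22 ± 0.61, FDR = 1.88e-05). Anxa2, a receptor for plasminogen and its activator, was likewise higher in arterioles (2.18 ± 0.57, FDR = 0.0103) and in glomeruli (3.25 ± 0.59, FDR = 0.000595), where it stood at 573 ± 161 CPM. Serpinf2, the plasmin inhibitor α2-antiplasmin, was lower in both (-3.72 ± 0.78, FDR = 0.00121, and -3.21 ± 0.76, FDR = 0.0101), and Plgrkt, a plasminogen receptor, was lower in arterioles (-9.72 ± 2.58, FDR = 0.013). Glomerular samples thus held Plat and also the inhibitor Serpine2, the latter at 365 ± 78.0 CPM. Serpine2 also belongs to the mesangial and pericyte list summed above. The part of those cells in its level was not tested.

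Receptors of thrombin and of the factors included 8 tested genes, of which 4 were higher in arterioles and 2 in glomeruli. Of all genes tested, 5.78% were called higher and 5.5% lower in arterioles, and 1.59% higher in glomeruli. Axl, a TAM receptor, was higher in arterioles (3.19 ± 0.67, FDR = 0.00123) and in glomeruli (3.14 ± 0.67, FDR = 0.00367), and Mertk, another receptor for protein S, in arterioles (1.89 ± 0.63, FDR = 0.0448) and in glomeruli (2.52 ± 0.64, FDR = 0.0188). The clearance receptors Stab1 (4.70 ± 1.00, FDR = 0.00158) and Lrp1 (2.58 ± 0.75, FDR = 0.0231) were higher in arterioles. Among 6 plasma anticoagulants and partners, Anxa5 was higher (2.11 ± 0.52, FDR = 0.00712) and Proc, protein C, lower (-2.89 ± 0.81, FDR = 0.0188) in arterioles. Proc stood at 475 ± 28.1 CPM in capillaries and 145 ± 29.1 CPM in whole kidney. Of 7 plasma clotting factors, F5 (-5.49 ± 1.74, FDR = 0.0365) and Fgb (-7.76 ± 2.54, FDR = 0.0435) were lower in arterioles.

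Heparan sulfate, the glycan of the vessel wall that antithrombin and tissue factor pathway inhibitor can bind, was represented by 12 tested genes. Of these 1, the core protein Sdc4, was lower in arterioles than in whole kidney (-2.42 ± 0.71, FDR = 0.023), beside 5.5% of all genes. In glomeruli 0 were called by the edgeR test, with 3 at an unadjusted p under 0.05. Among the compartments, 4 of these 12 met the marker rule in glomeruli (1.51% of all genes did): the sulfotransferases Hs3st6 (7.68 ± 1.38, FDR = 0.000445), Hs3st3b1 (7.15 ± 1.57, FDR = 0.00411) and Hs3st3a1 (6.94 ± 1.58, FDR = 0.00582), and Sdc4 (1.87 ± 0.55, FDR = 0.0468). Hs3st6 stood at 71.1 ± 7.85 CPM in glomeruli and at or below 3.51 CPM in each library of the other compartments. The part of podocytes in these glomerular levels was not tested, and binding of antithrombin was not measured. In all, of the 54 list genes tested among compartments, 6 met the rule in arterioles (4.76% of all genes), 7 in glomeruli (1.51%), 4 in capillaries (3.24%) and 0 in venules (0.238%), where 12 were at an unadjusted p under 0.05 in the edgeR test, in either direction.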

How the data were processed

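The authors made 3′ mRNA libraries (QuantSeq FWD), trimmed the reads with bbduk, mapped them by STAR onto GRCm38.p6 and used htseq-count per gene. The submitters' processing notes name STAR 2.7, SAMtools 1.9 and HTSeq 0.13, and list GRCm39 beside GRCm38.p6. The sources used here give neither a strand setting nor molecular identifiers. Raw read counts per gene were deposited by the authors without normalization. Of 168 columns of per-sample values, 20 were assigned to the 5 groups by the header lines of the table, and 148 were not used. Nothing ties a column to a labelled replicate, and the column of capillary 96 carries extra letters whose meaning is not given. Totals ran from 4639090 to 12283098 counts.

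Tests were run with edgeR 4.0.16 under R 4.3.3, with TMM scaling, filterByExpr by group and the quasi-likelihood test as in version 3 of the package. All 20 libraries were fitted for contrasts with whole kidney, where a call needed an FDR under 0.05 and a change of more than 1 log2 unit. The 16 microdissected libraries were fitted for contrasts among compartments, with calls at an FDR under 0.05. A marker passed against the average log level of the other 3 compartments, was higher, and reached 10 CPM or more in 4 of 4 libraries. FDR is the Benjamini-Hochberg adjusted p taken over every gene tested. The per-endothelial fit replaced the library size by the summed count of 21 endothelial genes. The scripts were tested on simulated data. Alternatives were RLE normalization, no filter, an independent filter, only the 8 libraries compared, all 20 libraries, a replicate block, DESeq2 1.42.0, the version 4 test form, Pecam1 alone and leaving out each library.

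The 8 genes and the lists were chosen with earlier results of these data known, so their levels here are not independent evidence. The study chose Vwf for follow-up from these libraries. It reported the arteriolar excess by quantitative RT-PCR as well. Its protein staining placed von Willebrand factor in arteriolar endothelium and, more weakly, in that of veins. All 8 genes were named in every group, with the 3 genes most correlated with each. Other hemostasis genes were named if called against whole kidney, up to 4 per list and contrast by smallest p. The capillary level of Proc and the glomerular markers of heparan sulfate synthesis were added after their values were seen. Gene positions are from GENCODE M21 (GRCm38), which held 34193 of the 34255 identifiers. F8 overlaps 3 annotated genes, none of them near its 3′ end, and the other 7 overlap none.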

Additional observations from a re-analysis of the deposited data

Results flagged for a closer look

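Dixon's criterion at the 95% level was applied to the CPM of 40 sets of 4 libraries (8 genes in 5 groups). In 7 of these sets 1 library stood apart from the others. The criterion flags about 1 set in 20 by chance only where values are normally distributed. CPM varied widely within groups and the sets share libraries, so the 7 flags cannot be weighed against that rate. Arteriole 98 stood apart with 42.65 CPM of Procr and 35.93 CPM of Plat. Capillary 93 stood apart with 16.71 CPM of Plat, 7.921 CPM of F8 and 0.9902 CPM of F3. Glomerular 93 stood apart with 1.596 CPM of F3, and arteriole 96 with 13.31 CPM of F8. In each case the library was the highest of its 4.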

How the results depend on the processing

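The calls of Vwf in arterioles against whole kidney, glomeruli and capillaries, of Thbd in arterioles against whole kidney, and the 2 markers stood under each alternative run. Over the 4 contrasts with whole kidney, 2 calls of the 8 genes became 6 with the version 4 test form, 5 with DESeq2 and 7 with only the 8 libraries compared, and 2 to 4 without 1 library. Over the 6 pairs of compartments, 7 calls became 12 with DESeq2 and 4 to 8 without 1 library. The markers were 2, 4 with the version 4 form, and 2 to 3 without 1 library; the genes with any difference were 2, 5 with the version 4 form, and 1 to 3 without 1 library. Per endothelial count the 3 calls became 3 to 6 without 1 library. The log2 fold change of Procr in arterioles against capillaries, not called, was 6.08 and ran from -3.30 (without arteriole 98) to 6.55 when 1 library was left out. The cause of these changes was not tested.

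Deviations of same-numbered libraries from their group means correlated weakly (-0.053 to 0.071 over 40 pairs, median 0.008, 0 above 0.1). Those of libraries with other numbers gave -0.104 to 0.05 over 120 pairs (median -0.003). Yet 12 of 20 libraries correlated best with a library of their own number. The study cut arterioles, glomeruli and venules of each mouse from the same slide, and capillaries from another slide. The numbers may thus mark mice, but no label says so. Whether the numbers pair the libraries was therefore not settled, and the main tests did not use them as pairs. With a replicate block the counts of calls were 2, 7, 2, 2 and 3 as without it; Vwf in capillaries against venules was lost (FDR = 0.2) and Thbd in arterioles against capillaries gained (FDR = 0.0465), and 15 of the 16 calls were shared.

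Counts over all genes also moved. Against whole kidney, 1558 genes were called in arterioles, 422 in glomeruli, 13 in capillaries and 31 in venules, and leaving out 1 library gave 778 to 1998, 212 to 681, 6 to 30 and 13 to 46. DESeq2 gave 3824 in arterioles, and the fits of only the 8 libraries compared gave 2827, 1380 and 1082 in the others. Between compartments, DESeq2 raised the counts from 267 to 2023 (arterioles against glomeruli), 1362 to 3382 (arterioles against capillaries), 533 to 2436 (arterioles against venules), 548 to 1718 (glomeruli against capillaries), 149 to 787 (glomeruli against venules) and 50 to 751 (capillaries against venules). Any difference was called for 1394 genes, and for 3502 with no filter on low counts. Markers numbered 580, 184, 394 and 29 in arterioles, glomeruli, capillaries and venules, and at most 936 (DESeq2), 340 and 649 (version 4 form) and 94 (no filter). Pecam1 alone as the endothelial count gave 812 in place of 268 genes for arterioles against glomeruli and 5 in place of 100 for capillaries against venules. The spread between libraries limits what 4 per group can show.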
